A study of Homo sapiens with 6 samples.

Results

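The genes of the Hippo pathway and the target genes of its coactivators YAP and TAZ were followed in the mesothelioma cell line NCI-H226 grown as spheroids or as monolayers. The members were 38 listed genes of the 19775 genes that the arrays measured with a probe set of 1 gene symbol. They comprised 22 pathway parts and 16 targets, listed by name but with earlier results of these data known. Of the 54675 probe sets on the array 125 were annotated to a member, and the 122 that carried 1 symbol were counted. The other 3 were shared by WWC2 and CLDN22 and were left out of the counts.

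Spheroids 1, 2 and 3 were made by seeding 10000 cells in each well coated with poly-HEMA, a polymer that prevents attachment, followed by centrifugation and 24 hours of incubation without added matrix. Monolayers 1, 2 and 3 were adherent cultures of the same line in medium with serum, and the medium of the spheroids is not stated. NCI-H226 is an established human mesothelioma line, so each group represents 1 line, and no tumor tissue or normal mesothelium was included. One array was hybridized per culture (n = 3 for each group), and the labels call the replicates biological without saying whether they were grown on separate days. The authors state that the spheroids and the RNA came from 3 independent experiments. No drug was given in either group.

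The Hippo pathway is a chain of kinases that restrains growth when cells are crowded, rounded or detached. The kinases MST1 and MST2, encoded by STK4 and STK3, act with the adaptors SAV1 and MOB1 to activate the LATS kinases, which phosphorylate YAP and TAZ and keep them out of the nucleus. Unphosphorylated YAP and TAZ enter the nucleus, bind the TEAD factors and switch on genes such as CCN1, CCN2 and ANKRD1. Merlin, the product of NF2, acts upstream of LATS and is often lost in mesothelioma. Most of this control is exerted on protein phosphorylation and location, which RNA arrays do not measure.

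TEAD factors bind the sequence GGAATG, so the promoters of the members were searched for these 6 letters on both strands in the 250 bases before the RefSeq gene start (GRCh38.p14). Promoters were matched for 29 of the 38 members, 18 pathway parts and 11 targets. The letters occurred in 11.9% of all 35116 promoters in the table, in 16.7% of those of the pathway parts (3 of 18) and in 45.5% of those of the targets (5 of 11). Among the pathway parts these were YAP1, WWC2 and PTPN14. Among the targets they were CCN2 with 3 copies, ANKRD1 with 2, and FOXF2, TGFB2 and DDAH1 with 1 each. At least 3 copies were present in 29 of the 35116 promoters (0.0826%). The promoters of 4 targets are shown because they span the range from 3 copies to none and belong to targets whose signals are given in full. Capitals mark GGAATG or its reverse complement CATTCC.
CCN2 promoter, chr6:131951373-131951622, minus strand: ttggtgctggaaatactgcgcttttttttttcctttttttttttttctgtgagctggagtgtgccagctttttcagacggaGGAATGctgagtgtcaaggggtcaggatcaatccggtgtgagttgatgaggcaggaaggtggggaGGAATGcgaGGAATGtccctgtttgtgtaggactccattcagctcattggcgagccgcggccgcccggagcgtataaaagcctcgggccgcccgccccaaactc
ANKRD1 promoter, chr10:90921088-90921337, minus strand: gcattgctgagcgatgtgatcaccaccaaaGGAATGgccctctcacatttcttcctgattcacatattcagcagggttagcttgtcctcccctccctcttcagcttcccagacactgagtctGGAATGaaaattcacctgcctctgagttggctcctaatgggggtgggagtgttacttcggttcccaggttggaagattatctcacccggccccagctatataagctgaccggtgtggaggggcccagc
DDAH1 promoter, chr1:85578201-85578450, minus strand: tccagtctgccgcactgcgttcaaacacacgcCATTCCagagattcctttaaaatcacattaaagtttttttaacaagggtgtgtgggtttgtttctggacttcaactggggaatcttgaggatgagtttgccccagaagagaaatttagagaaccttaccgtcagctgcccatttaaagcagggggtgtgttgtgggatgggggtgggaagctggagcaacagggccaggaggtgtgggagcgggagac
GADD45B promoter, chr19:2475877-2476126, plus strand: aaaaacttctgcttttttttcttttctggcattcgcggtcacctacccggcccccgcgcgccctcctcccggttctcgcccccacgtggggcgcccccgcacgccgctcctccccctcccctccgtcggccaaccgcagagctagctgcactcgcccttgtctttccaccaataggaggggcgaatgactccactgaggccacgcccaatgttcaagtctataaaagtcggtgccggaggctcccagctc
In CCN2 the first bases of the 3 copies lay at -169, -104 and -95 from the gene start, with the last 2 separated by 3 bases. In ANKRD1 they lay at -220 and -128. The copy of DDAH1 was on the opposite strand at -218. GADD45B held no copy in this window, and neither did AXL, FJX1 or RBMS3. A match of letters is a description of the sequence and does not show that a TEAD factor binds there.

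Signals are given as deposited, on the linear MAS5 scale, a summary of the brightness of the probes of a probe set. Fold changes and tests used log2 signals after each array had been centred on its own median, because the medians were 15.6, 18.0 and 15.2 in the spheroids and 14.7, 14.6 and 14.7 in the monolayers. A gene whose spheroid signals were slightly higher may therefore show a log2 fold change near 0. Changes are spheroid minus monolayer, tested with limma, and a gene or probe set was called when its Benjamini-Hochberg adjusted p over all 54613 tested probe sets was under 0.05. Each gene was read by its 1-symbol probe set of highest mean level. Of the 38 members, 36 had a level above the median of all probe sets, the exceptions being AMOT and WWC2.

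Monolayer 1 stood apart from the other monolayers in several genes. CALB2, which encodes the mesothelial marker calretinin, had 2238, 1317 and 1765 in spheroids 1 to 3, against 1582, 163 and 83.6 in monolayers 1 to 3, and KRT5, a keratin of mesothelial cells, had 911, 267 and 290 in spheroids 1 to 3, against 1845, 130 and 79.3 in monolayers 1 to 3. In KRT5 spheroid 1 was also above the other spheroids. Calls of members that were gained or lost without monolayer 1 are therefore given with and without it. Of 8 listed mesothelial markers, 7 were measured, and their summed signal was 6447 to 9116 in the spheroids and 2669 to 8617 in the monolayers. PDPN, which encodes podoplanin, was called higher (2.14-fold, limma adjusted p = 0.0396), 5 others had positive log2 fold changes and THBD had -1.24, none of which passed. Leukocyte markers summed to 143 to 179 in spheroids and 104 to 127 in monolayers (4 of 5 measured) and endothelial markers to 110 to 208 in spheroids and 52.1 to 236 in monolayers (4 of 4 measured), with none of either list called.

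Lower signals in the spheroids were found for 7 of the 16 targets and 2 of the 22 pathway parts. The 7 targets were GADD45B, CCN2, DLC1, FJX1, RBMS3, DDAH1 and AXL. No target was higher by limma, and none was higher at an unadjusted p under 0.05 or by the methods' t-test. Among the pathway parts TEAD4 and STK3 were lower, VGLL4 was higher and 19 did not pass. Over all 19775 genes read in the same way, 9.22% were called lower and 3.88% higher, and among the genes above the median level 14.5% were called lower and 5.76% higher. The share called lower was thus 43.8% for the targets and 9.09% for the pathway parts, the second of which lay near the background. The median log2 fold change was -0.61 for the targets and -0.19 for the pathway parts, against -0.06 for all genes and -0.12 for those above the median level. Of the targets 14 of 16 had a negative fold change, against 12 of 22 pathway parts. The 2 lists were not tested against each other.

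**Figure D1:**
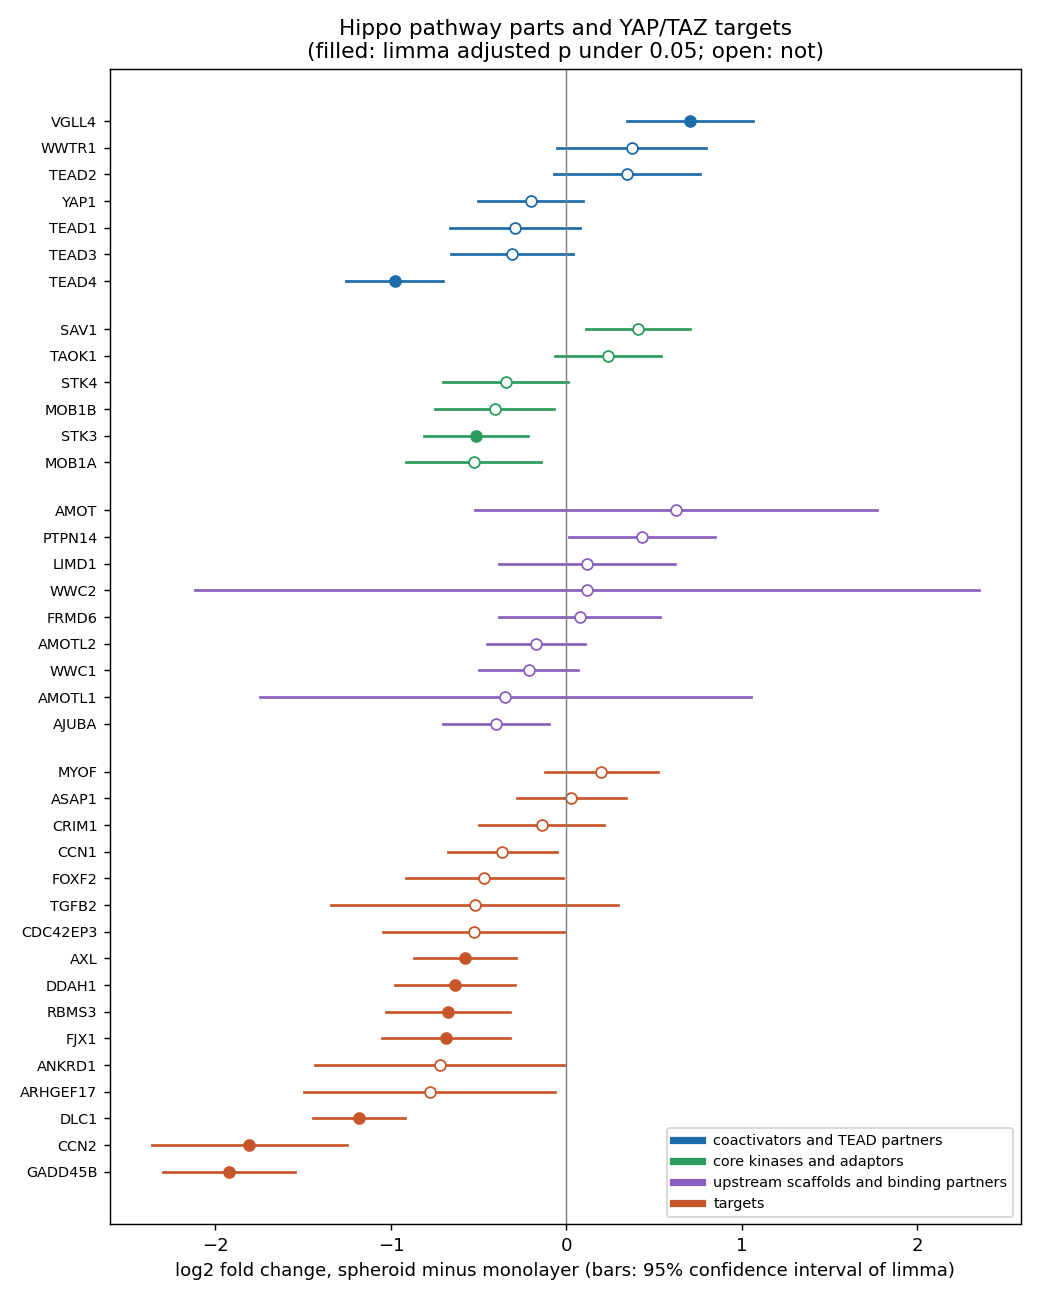
Log2 fold change of each of the 38 members, spheroid minus monolayer (x axis), with the 95% confidence interval from limma as bars, n = 3 arrays per group; members run down the page by role, and filled circles mark adjusted p under 0.05. Filled circles lie left of 0 for 7 targets, TEAD4 and STK3, and right of 0 for VGLL4 alone.

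The scaling and the model bear on these counts. Without centring, the median log2 fold change over all probe sets was 0.07 instead of -0.08, the median of the pathway parts -0.04 and that of the targets -0.46, and 6 targets were lower and 4 pathway parts higher. Without the mean-variance trend limma called 457 probe sets in all instead of 5149, and of the 10 member genes GADD45B alone was still called.

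The coactivators themselves did not pass the test. YAP1, which encodes YAP, had signals of 1924, 1977 and 1896 in spheroids 1, 2 and 3, against 1787, 2098 and 2171 in monolayers 1, 2 and 3. The groups overlapped, and the log2 fold change was -0.20 (95% confidence interval -0.50 to 0.10, limma adjusted p = 0.431). WWTR1, which encodes TAZ, had 696, 672 and 727 in the spheroids, against 372, 588 and 531 in the monolayers. Every spheroid was above every monolayer, with monolayer 1 the lowest, and the log2 fold change was 0.37 (-0.05 to 0.80, adjusted p = 0.292), or 0.18 without monolayer 1. The intervals leave room for a change of moderate size in either gene. Dimmer probe sets of the same genes depended in part on monolayer 1. Without this array the log2 fold change was -0.74 for YAP1 probe set 213342_at and -1.30 for WWTR1 probe set 202134_s_at, both then called. With all 6 arrays they were -0.50 and -0.97 and not called. When the replicate number also entered the model (the replicate block), WWTR1 202134_s_at was called with all 6 arrays (-0.97). The WWTR1 probe sets thus differed in direction.

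The 4 TEAD genes encode the DNA-binding partners of YAP and TAZ. TEAD4 had 373, 389 and 385 in the spheroids, against 690, 679 and 675 in the monolayers (probe set 41037_at). The spread within each group was small beside the gap between them, and TEAD4 was 1.97-fold lower in the spheroids (log2 fold change -0.98, SE 0.12, adjusted p = 0.00201). A second TEAD4 probe set, 204281_at, had 314, 292 and 287 in the spheroids and 493, 393 and 514 in the monolayers (log2 fold change -0.79, adjusted p = 0.0138). The other TEAD genes did not pass, with log2 fold changes of -0.29 for TEAD1, 0.34 for TEAD2 and -0.31 for TEAD3. By the methods' t-test TEAD2 was called higher. VGLL4, which encodes a protein that competes with YAP for TEAD, had 1277, 1040 and 1089 in the spheroids and 700, 594 and 593 in the monolayers. It was the 1 member called higher (log2 fold change 0.70, SE 0.16, 1.63-fold, adjusted p = 0.0248), and its second probe set, 214004_s_at, had a log2 fold change of 0.47 and did not pass (adjusted p = 0.136). Without centring (0.61) and with quantile normalization (0.65) 214004_s_at was called higher. The call of TEAD4 by 41037_at held without any single array, that by 204281_at ended without monolayer 3 (-0.71), and that of VGLL4 ended without monolayer 2, monolayer 3, spheroid 1 or spheroid 3 (0.59 to 0.68) and by the methods' t-test.

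Among the core kinases and their adaptors, 1 of 6 genes was called. STK3, which encodes the kinase MST2, had 635, 627 and 662 in the spheroids and 866, 800 and 821 in the monolayers. The groups did not overlap and STK3 was 1.43-fold lower in the spheroids (log2 fold change -0.52, SE 0.13, adjusted p = 0.0403). It was close to the threshold, and its call ended without any 1 of the 6 arrays (-0.59 to -0.42). STK4, MOB1A and MOB1B had log2 fold changes of -0.35, -0.53 and -0.41, and TAOK1, which encodes a kinase that activates MST, had 0.24, none of which passed. TAOK1 was called higher without centring (0.39) and with quantile normalization (0.40), and MOB1A was called lower with the replicate block (-0.53). A further STK4 probe set, 236259_at, had -0.76 and was called without monolayer 1 (-1.15).

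SAV1, the scaffold that holds MST and LATS together, gave opposite directions by probe set. Its brightest probe set, 234491_s_at, had 631, 730 and 747 in the spheroids and 458, 492 and 483 in the monolayers (log2 fold change 0.41, adjusted p = 0.0905). Probe set 238729_x_at, which was dimmer, had 87.1, 95.3 and 103 in the spheroids and 183, 145 and 183 in the monolayers (log2 fold change -0.98, SE 0.17, adjusted p = 0.00877). Of the 5 SAV1 probe sets, 3 had positive and 2 negative fold changes, and without centring 234491_s_at was also called (0.55). No single direction can therefore be given for SAV1 RNA.

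None of the 9 upstream scaffolds and binding partners was called by its brightest probe set. At an unadjusted p under 0.05, 1 was lower and 1 higher, and the methods' t-test called none. AMOT, which encodes angiomotin, a binder of YAP at junctions, had the largest difference (log2 fold change 0.63, -0.52 to 1.77), but with signals of 10.6, 13.4 and 15.6 in the spheroids and 14.2, 5.36 and 5.85 in the monolayers its mean level was below the median of all probe sets. PTPN14, a phosphatase that retains YAP in the cytoplasm, had 0.43 (0.01 to 0.85, adjusted p = 0.208), and without centring it was called higher (0.58). Of the 4 PTPN14 probe sets, however, 3 had negative log2 fold changes, down to -0.72, and none was called. AJUBA, a LIM protein that inhibits LATS, had -0.40 (-0.70 to -0.10, adjusted p = 0.106). The remaining 6 genes (WWC1, WWC2, FRMD6, AMOTL1, AMOTL2 and LIMD1) had log2 fold changes of -0.35 to 0.12. AMOTL1, a relative of angiomotin, depended on monolayer 1: it had 38.2, 65.4 and 43.3 in the spheroids and 16.4, 109 and 92.2 in the monolayers, and its log2 fold change was -0.35 with all arrays but -1.22 and called lower without monolayer 1, as was its dim probe set 225459_at (-1.24 with all arrays, -2.37 without). WWC2 was read by a very dim probe set, whereas the 3 probe sets that it shares with CLDN22 had log2 fold changes of -0.51, -0.48 and -0.56, none of which passed, with every spheroid below every monolayer.

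Dimmer probe sets of 2 of these genes were called lower. AJUBA probe set 225807_at had 149, 209 and 199 in the spheroids and 259, 381 and 298 in the monolayers (log2 fold change -0.90, SE 0.19, adjusted p = 0.0184). For WWC1, which encodes KIBRA, a partner of merlin, probe set 216074_x_at had 825, 854 and 804 in the spheroids and 1141, 1128 and 968 in the monolayers (-0.52, SE 0.13, adjusted p = 0.0348). WWC1 probe set 237238_at had 7.18, 26.3 and 17.6 in the spheroids and 61.3, 39.6 and 38.3 in the monolayers (-1.75, SE 0.44, adjusted p = 0.0406). All of these groups were apart, and all 4 AJUBA probe sets and 6 of 8 WWC1 probe sets had negative fold changes. AJUBA 1553764_a_at had -0.48 and was called without monolayer 1 (-0.59). The calls of both WWC1 probe sets ended without any 1 of the 6 arrays (-0.60 to -0.47 for 216074_x_at and -2.08 to -1.25 for 237238_at), and that of AJUBA ended without monolayer 2, monolayer 3, spheroid 1 or spheroid 2 (-0.93 to -0.74). Quantile normalization also ended the calls of all 3 probe sets (-0.36 for 216074_x_at, -1.67 for 237238_at and -0.72 for 225807_at).

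The clearest differences were among the targets. GADD45B, a stress-inducible gene of growth arrest and DNA damage, had 390.0, 315 and 340 in the spheroids and 1055, 1346 and 1181 in the monolayers (probe set 207574_s_at). The lowest monolayer was well above the highest spheroid, and GADD45B was 3.79-fold lower in the spheroids (log2 fold change -1.92, SE 0.17, adjusted p = 0.000616). Its other 3 probe sets were also lower, by log2 fold changes of -1.89 (209304_x_at), -1.77 (209305_s_at) and -2.59 (213560_at). CCN2, which encodes connective tissue growth factor and is a widely used readout of YAP activity, had 531, 427 and 461 in the spheroids and 2225, 1154 and 1291 in the monolayers. It was 3.50-fold lower in the spheroids (log2 fold change -1.81, SE 0.25, adjusted p = 0.00287), with means of 473 ± 52.7 in the spheroids and 1557 ± 583 in the monolayers (SD, n = 3 each). Monolayer 1 was the highest of the monolayers, and CCN2 was still called without it (-1.52). DLC1, which encodes a GTPase-activating protein, had 825, 936 and 764 in the spheroids and 1619, 1746 and 1801 in the monolayers. It was 2.27-fold lower in the spheroids (log2 fold change -1.18, SE 0.12, adjusted p = 0.000836), and probe set 224822_at gave -1.19. The other 3 of its 5 probe sets were not called, and 1 of them was positive (0.63). Among these, 220512_at had -0.98 and was called without monolayer 1 (-1.41) and with the replicate block (-0.98).

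**Figure D2:**
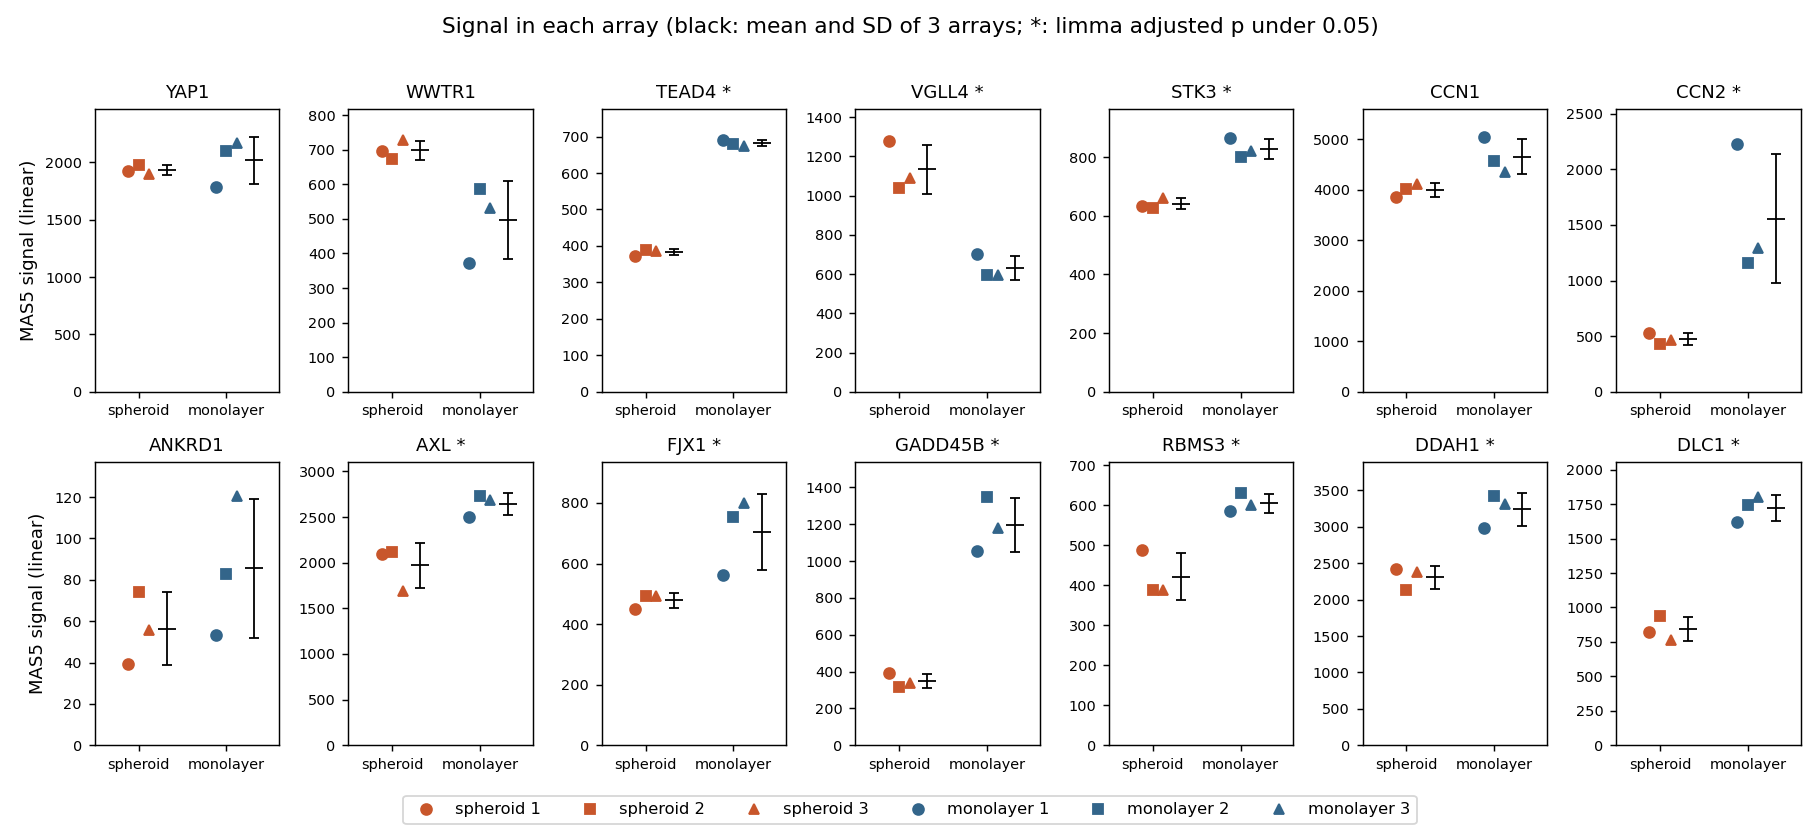
MAS5 signal on a linear axis from 0 for 14 members in each array, spheroids in orange and monolayers in blue, with the replicate number shown by the marker shape and the mean and SD of 3 arrays in black; an asterisk marks limma adjusted p under 0.05. GADD45B, CCN2, DLC1 and TEAD4 are separated by wide gaps, whereas YAP1 and ANKRD1 overlap between the groups.

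The other called targets differed by less than 2-fold by their brightest probe sets. FJX1, the human counterpart of the fly gene four-jointed, had 450, 494 and 493 in the spheroids and 561, 753 and 800 in the monolayers (log2 fold change -0.69, SE 0.16, adjusted p = 0.0294). RBMS3, which encodes an RNA-binding protein, had 488, 389 and 388 in the spheroids and 585, 630.0 and 599 in the monolayers (-0.67, SE 0.16, adjusted p = 0.0280). Both were apart between the groups, though in RBMS3 this probe set was the 1 called of 7. DDAH1, which encodes an enzyme that degrades asymmetric dimethylarginine, had 2419, 2129 and 2381 in the spheroids and 2987, 3421 and 3317 in the monolayers (-0.63, SE 0.15, adjusted p = 0.0312). AXL, a receptor tyrosine kinase, had 2099, 2119 and 1691 in the spheroids and 2502, 2734 and 2692 in the monolayers (-0.58, SE 0.13, adjusted p = 0.0246). The groups of both genes were apart. Further probe sets of these genes were lower too: AXL 202685_s_at had 131, 144 and 134 in the spheroids and 189, 215 and 211 in the monolayers (-0.74), and DDAH1 229456_s_at and 243711_at had log2 fold changes of -1.37 and -1.59.

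The calls of these smaller differences depended on single arrays, whereas their log2 fold changes stayed negative and in part grew. The number of calls over all probe sets also changed with the array left out. With all arrays 3630 were lower, against 1612 without monolayer 2 and 1660 without monolayer 3. Without monolayer 1 the number rose to 4314, and without spheroid 1, 2 or 3 it was 2764, 2017 or 2185. The calls of AXL, FJX1, RBMS3 and DDAH1 by the brightest probe set all ended without monolayer 2 or without monolayer 3, with log2 fold changes of -0.55 and -0.57 for AXL, -0.63 and -0.59 for FJX1, -0.64 and -0.68 for RBMS3 and -0.59 and -0.62 for DDAH1. They also ended without spheroid 3 for all 4 genes (-0.52 for AXL, -0.75 for FJX1, -0.67 for RBMS3 and -0.70 for DDAH1), without spheroid 1 for FJX1 (-0.67) and DDAH1 (-0.70), and without spheroid 2 for FJX1 (-0.63) and RBMS3 (-0.54). FJX1 was also not called without centring (-0.54) or with quantile normalization (-0.50). Of the further probe sets, the calls of GADD45B 213560_at (-2.54 and -2.69) and AXL 202685_s_at (-0.70 and -0.72) ended without monolayer 2 or without monolayer 3, and that of DDAH1 229456_s_at ended without any 1 array other than spheroid 3 (-1.52 to -0.98). The calls of GADD45B (207574_s_at, 209304_x_at and 209305_s_at), CCN2 and both DLC1 probe sets held without any single array, and 3 targets were still called without monolayer 2, without monolayer 3 or without spheroid 3.

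**Figure D3:**
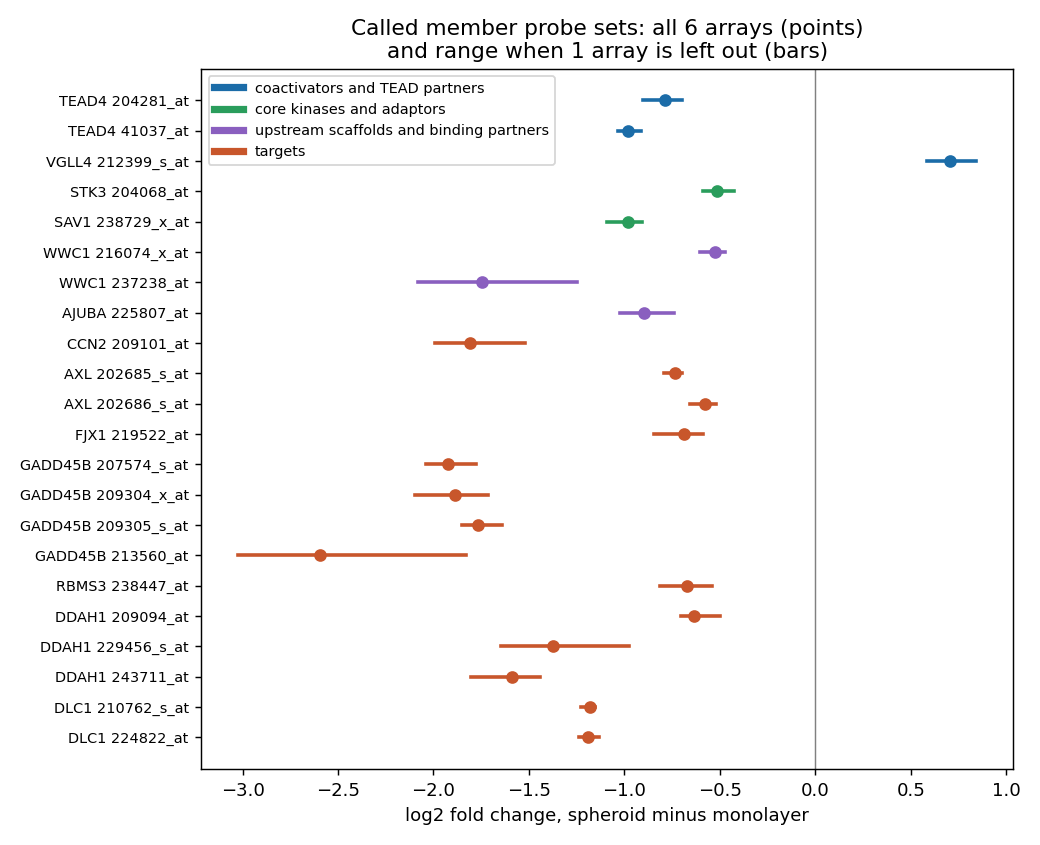
Log2 fold change, spheroid minus monolayer, of the 22 called member probe sets with all 6 arrays (points) and the lowest and highest value when 1 array is left out (bars); colours give the role. No bar crosses 0, and the bars are widest for the dim probe sets GADD45B 213560_at, WWC1 237238_at and DDAH1 229456_s_at.

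Classical targets did not all pass. CCN1, which encodes the matrix protein CYR61, had 3850, 4005 and 4118 in the spheroids and 5036, 4576 and 4355 in the monolayers. Every spheroid was below every monolayer, yet the log2 fold change of -0.37 (-0.68 to -0.06) did not pass (adjusted p = 0.147), and its second probe set, 201289_at, overlapped between the groups (-0.20). With quantile normalization CCN1 210764_s_at was called (-0.36). ANKRD1, which encodes a muscle ankyrin repeat protein, had 39.1, 74.3 and 55.6 in the spheroids and 53.1, 83.0 and 120 in the monolayers. The groups overlapped through monolayer 1, the log2 fold change was -0.72 (adjusted p = 0.219), and without 1 array it was between -1.02, called, without monolayer 1 and -0.43, not called, without monolayer 3. ANKRD1 varied more within each group than CCN1 did.

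Of the 7 other targets that did not pass, 5 had negative and 2 positive log2 fold changes. ARHGEF17, a guanine nucleotide exchange factor, had -0.78 (-1.50 to -0.06, adjusted p = 0.182), CDC42EP3, an effector of CDC42, had -0.53 (-1.05 to -0.01, adjusted p = 0.213), and TGFB2, a growth factor, had -0.52 (-1.34 to 0.30, adjusted p = 0.463). CDC42EP3 had 714, 1013 and 943 in the spheroids and 791, 1290 and 1482 in the monolayers. All 4 of its probe sets were negative, and all 4 were called without monolayer 1 (-1.04 to -0.79). ARHGEF17 was called without spheroid 1 (-1.14). FOXF2 and CRIM1 had -0.47 and -0.14, and ASAP1 and MYOF 0.03 and 0.20. MYOF, a membrane-repair protein, had signals of 3609 to 3662 in the spheroids and 2520 to 3168 in the monolayers, which do not overlap, but after centring its interval was -0.12 to 0.52.

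Counted over all 122 member probe sets of 1 symbol, 21 were lower, 1 was higher and 100 did not pass, where 6.65% of all tested probe sets were called lower and 2.78% higher (12.7% and 4.94% among those above the median level). The targets held 14 of the lower probe sets among 49 and the pathway parts 7 among 73. By gene, 7 targets had at least 1 probe set called lower and 9 had none called. Of the pathway parts 5 had at least 1 called lower (TEAD4, STK3, SAV1, WWC1 and AJUBA), 1 had 1 called higher and 16 had none called. Genes with more probe sets have more chances of a call (WWC1 had 8, SAV1 5 and AJUBA 4). The share of all genes by this rule was not computed, so these counts have no background here. In the deposited signals, every spheroid was below every monolayer for 8 of 16 targets and 4 of 22 pathway parts, against 16.0% of all genes (23.3% of those above the median level). Every spheroid was above every monolayer for 2 targets and 6 pathway parts, against 19.0% of all genes (23.8% of those above the median level).

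**Figure D4:**
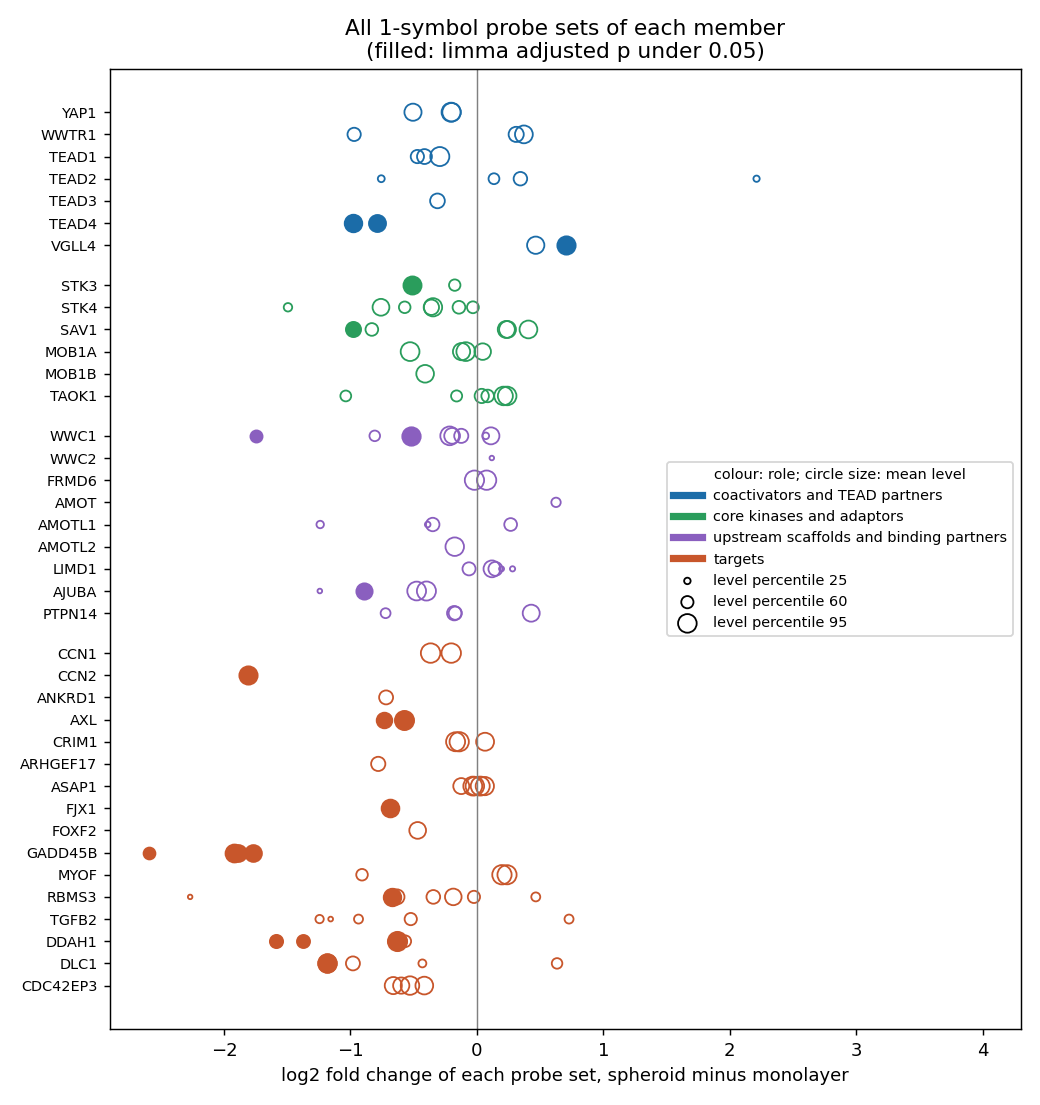
Log2 fold change, spheroid minus monolayer, of each of the 122 member probe sets of 1 symbol, 1 line per gene; circle size gives the mean level as a percentile among all probe sets, colour the role, and filled circles adjusted p under 0.05. The 4 GADD45B probe sets lie together at the left, whereas those of SAV1 and WWTR1 fall on both sides of 0.

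Further genes of the pathway and further targets were taken from a list of 37, of which 32 were measured. None was called higher by limma, 3 were higher at an unadjusted p under 0.05, the methods' t-test called none higher, and 5 were lower. The share called lower was thus 15.6%, against 9.22% of all genes and 14.5% of those above the median level, so it lay near the background. The 3 lower of 25 measured pathway genes act at cell polarity complexes or with LATS. SCRIB, a polarity scaffold, had 357, 390.1 and 331 in the spheroids and 854, 678 and 717 in the monolayers (log2 fold change -1.20, SE 0.13, adjusted p = 0.00120). WTIP, a LIM protein related to AJUBA, had 112, 120 and 94.9 in the spheroids and 199, 217 and 180 in the monolayers (-1.01, adjusted p = 0.00406). The groups did not overlap in either gene, and SCRIB was 2.30-fold lower in the spheroids. PALS1, a polarity scaffold of the Crumbs complex, had 924, 799 and 779 in the spheroids and 1070, 1079 and 1102 in the monolayers (-0.53, adjusted p = 0.0453), a call that ended without monolayer 1, 2 or 3 or without spheroid 2 or 3 (-0.54 to -0.42).

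LATS1 and LATS2, the kinases that phosphorylate YAP and TAZ, did not pass. LATS1 had a log2 fold change of 0.11 (adjusted p = 0.715) and LATS2, itself a YAP target, -0.52 (adjusted p = 0.0630). Every spheroid was below every monolayer in LATS2, which was called lower with the replicate block and in the fit of probe sets above the median level. The 8 probe sets of NF2 gave signals of 0.360 to 16.8 in the spheroids and 0.855 to 14.9 in the monolayers, at or near the array medians or below, and none was called.

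Of 8 measured further targets, 2 were lower. F3, which encodes tissue factor, had 1062, 1371 and 1105 in the spheroids and 2558, 2536 and 2686 in the monolayers. It was 2.45-fold lower in the spheroids (log2 fold change -1.29, SE 0.12, adjusted p = 0.000688), a call that held under every alternative run. THBS1, which encodes thrombospondin 1, had 208, 84.8 and 68.2 in the spheroids and 605, 246 and 349 in the monolayers. The groups were apart although replicate 1 was the highest in both, with a log2 fold change of -1.96 (SE 0.44, adjusted p = 0.0255) that lost its call without monolayer 3 (-2.01), spheroid 2 (-1.72) or spheroid 3 (-1.68). DOCK5 had 1 dim probe set of 8 called lower, 1570078_a_at (-1.89), whereas its brightest had 0.01. That call ended without any 1 array other than spheroid 3 (-2.16 to -1.64).

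Markers of proliferation differed between the groups in the same direction as the called targets. All 5 of MKI67, TOP2A, CCNB1, CDK1 and BIRC5 were called lower, with a median log2 fold change of -1.43, and their summed signal was 2487 to 4025 in the spheroids and 7840 to 9542 in the monolayers. Their part in the lower signals of the targets was not tested. The 3′ to 5′ signal ratio of ACTB, a sign of RNA integrity, was 1.17 ± 0.0603 in the spheroids and 1.09 ± 0.0123 in the monolayers (SD, n = 3 each, two-sided exact permutation p = 0.1, adjusted over 2 controls 0.2, where 0.1 is the smallest p that 3 arrays against 3 allow), and that of GAPDH was 0.901 in the spheroids and 0.894 in the monolayers (exact permutation p = 0.6). In bulk RNA, fewer cells that express a gene and less RNA of it per cell cannot be told apart.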

How the data were processed

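Total RNA of 3 spheroid and 3 monolayer cultures was hybridized to Affymetrix Human Genome U133 Plus 2.0 arrays, 1 per culture. The authors deposited linear signal intensity values per probe set made with MAS5. On every array the mean without the highest and lowest 2% of probe sets was 150.0, which shows a scaling to that value. The methods also name a normalization to the median, which the deposited medians do not show. Detection calls were not used here, and precision is limited by how many arrays there are.

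The 62 control probe sets of the 54675 did not enter the tests. Log2 signals were centred on each array's median, without a pseudocount or filter, and compared with limma 3.58.1 (trend, empirical Bayes) in R 4.3.3. Benjamini-Hochberg adjustment ran over the remaining 54613 probe sets, and the code was tested on simulated data. In the annotation given, 41097 probe sets had 1 gene symbol, 1801 several and 11777 none. Of the additional genes listed, 5 were not analysed here because no 1-symbol probe set was matched. Promoters came from RefSeq.

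Values per array were given for YAP1, WWTR1, CCN1, CCN2, ANKRD1, AXL, every member with a called probe set, and up to 6 further genes with the smallest adjusted p. Of members not called, up to 3 per role with the largest change were to be described, and others are given by value for completeness. Array values of CDC42EP3, AMOT and AMOTL1, signal ranges of MYOF and the markers CALB2, KRT5, PDPN and THBD were chosen after their values were seen. So were the mentions of calls gained only under an alternative, such as without monolayer 1. Members and lists were chosen with earlier results of these data known. The alternatives were quantile normalization, no centring, no trend, a signal floor at percentile 20, a restriction to probe sets of above-median level, the methods' t-test, a replicate block, the mean of all probe sets of a gene and leaving out each array.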

Additional observations from a re-analysis of the deposited data

How the results depend on the processing

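Of 466 comparisons of 36 single fold changes with an alternative, 322 kept direction and side of the threshold, 141 lost the call, 3 gained one and 0 reversed. The 36 included YAP1, WWTR1, CCN1 and ANKRD1, which were not called. The fits without the trend, by the t-test, with the replicate block and above the median level leave each log2 fold change unchanged. They could not reverse a direction, and the called values had been selected for a small p. Member probe sets called higher numbered 1, against 5 without centring, 7 with quantile normalization and 0 without the trend, and 0 to 1 when 1 array was left out. Those called lower numbered 21, against 2 without the trend and 6 with the t-test that the methods name, and 9 to 29 when 1 array was left out, with 10 without monolayer 2, 9 without monolayer 3 and 29 without monolayer 1. Pathway parts called higher numbered 1, against 4 without centring, 4 with quantile normalization and 0 without the trend (0 to 1 with 1 array left out), and those called lower 2, against 0 without the trend and 1 by the t-test (1 to 2 with 1 array left out). Targets called lower numbered 7, against 1 without the trend and 2 by the t-test (3 to 9 with 1 array left out). Of the further genes, none was called higher, against 2 without centring, 2 with quantile normalization, 1 among probe sets above the median level and 1 with the replicate block (0 to 2 with 1 array left out), and 5 were lower, against 1 without the trend and 3 by the t-test (3 to 6 with 1 array left out). The median of the pathway parts was -0.19, against -0.044 without centring and -0.036 with quantile normalization (-0.24 to -0.064 with 1 array left out), and that of the targets was -0.61 (-0.68 to -0.55 with 1 array left out). Over all probe sets, 1519 were higher and 3630 lower, against 2561 higher and 2863 lower without centring. The cause of these differences was not tested. A fit without 1 array has fewer samples, yet without monolayer 1 the calls over all probe sets numbered 6577, against 5149 with all arrays.

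Of the 22 called member probe sets, 2 (GADD45B 207574_s_at and 209305_s_at) passed under every alternative, and 3 (TEAD4 41037_at and DLC1 210762_s_at and 224822_at) lost the call only without the trend. CCN2 lost it by the t-test and in the fit lacking the trend. Over all probe sets, deviations of same-numbered arrays correlated at 0.09, -0.01 and 0.02. Of 3 spheroids 1 correlated best with its own number, and the numbers were not taken as pairs. With 3 arrays per group these correlations cannot exclude pairing, and KRT5 and THBS1 were highest in replicate 1 of both groups. With the replicate block, 25 member probe sets were lower, 1 was higher and 8 targets were lower. Over all probe sets the block called 6133, against 5149 without it. Signal over background was not known here, which limits the dim probe sets of NF2, AMOT and WWC2.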
